A study of Mus musculus with 6 samples.

Results

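The cytosolic heat shock proteins and the chaperonin of MB21 cells were followed as 32 genes chosen by name, all of which were found among the 55416 genes of the table by their mouse gene identifiers. They comprised 2 heat shock factors, 11 chaperones and co-chaperones of the kind that heat shock factor HSF1 induces, 3 constitutive chaperones, 8 further co-chaperones and the 8 subunits of the TCP1 ring. Bag3 had too few reads to be tested, and the other 31 genes passed the filter on low counts. MB21 is a mouse medulloblastoma cell line with a mutation in Ptch, the receptor that restrains hedgehog signalling, and it was grown in suspension in a B27-supplemented medium. RNA sequencing covered 3 libraries of cells given 10 uM DS38 (DS-1-38, which the submitters describe as derived from benzarone) for 1 day and 3 libraries of cells given the vehicle, DMSO, for 1 day. Both groups carry the Ptch mutation and come from this single line. The series' design text gives 5 days, whereas its title, the sample titles and the treatment protocol give 1 day, which is used here. The comparison asks which genes respond to the compound.

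Heat shock proteins hold unfolded or newly made proteins in a foldable state. HSP70 chaperones take up clients with the help of J-domain proteins and release them through nucleotide exchange factors, and HSP90 chaperones finish the folding of kinases, hormone receptors and other signalling proteins with a set of co-chaperones. When unfolded protein accumulates in the cytosol, HSF1 is freed from chaperones, binds heat shock elements in DNA and drives the inducible members within hours. The TCP1 ring, also called TRiC or CCT, is built of 8 related subunits and folds actin and tubulin.

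Totals were 60434089 to 84044428 counts per DS38 library and 38840296 to 50014681 counts per DMSO library, so every DS38 library was the deeper. Levels are given in CPM, the counts scaled to a common library total after TMM normalisation, and divided by gene length in kilobases, as RPKM, wherever genes are compared with each other. Markers of the granule neuron lineage and hedgehog medulloblastoma were taken as 1 list. They summed to 1758 to 1791 CPM in DS38 and 1748 to 1781 CPM in DMSO. Among them Atoh1 and Barhl1 rose in edgeR's test, with log2 fold changes of 0.33 ± 0.028 and 0.27 ± 0.030 (SE). Neurod1, Zic2 and Gli1 were among the 4 that fell, with -0.37 ± 0.036, -0.14 ± 0.029 and -0.15 ± 0.035 (SE). Of all genes tested, 24.5% were called in either direction. Summed microglial markers stayed at or below 0.440 CPM and endothelial markers at or below 1.003 CPM in every library, with the endothelial genes Cldn5 and Kdr at 0 counts throughout. Of the markers of other cell types, Gfap was higher in DS38 (5.40 ± 0.333 CPM in DS38 and 4.33 ± 0.241 CPM in DMSO), as was Col1a1 (0.822 ± 0.258 CPM in DS38 and 0.373 ± 0.168 CPM in DMSO; SD, n = 3). Their lists, mostly Slc1a3 and Pdgfra by level, summed to 142 to 148 CPM in DS38 and 143 to 151 CPM in DMSO for astrocytes, and to 67.9 to 72.7 CPM in DS38 and 71.5 to 72.2 CPM in DMSO for fibroblasts. The oligodendrocyte list summed to 4.21 to 4.88 CPM in DS38 and 4.47 to 4.79 CPM in DMSO. In the oligodendrocyte, microglial and endothelial lists no tested gene was called by edgeR, DESeq2 or limma-voom or had an unadjusted p under 0.05; those of smallest p were Mbp and Mog, Tmem119, and Cdh5 and Pecam1 (edgeR adjusted p 0.3683 to 0.7468). The part of other cells in the results below was not tested.

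After 1 day of DS38, 1 of the 31 tested chaperone genes was higher and 5 were lower than in DMSO, and 25 did not pass the test. The small heat shock protein gene Cryab rose 1.65-fold. Hsph1, Dnaja1, Hsp90aa1, Hspa8 and Ahsa1 fell to between 0.842 and 0.925 of their DMSO levels. None of the 8 genes of the TCP1 ring passed, and neither did the heat shock factors. Over all 17679 genes tested, 24.5% were called, 12.9% higher and 11.7% lower (edgeR's quasi-likelihood test, adjusted p under 0.05), so 6 calls among 31 genes are no more than this background. Their median log2 fold change was -0.03, beside 0.004 for all genes tested. Because these are bulk libraries, fewer cells expressing a gene and less of its RNA per cell cannot be told apart. The DS38 libraries lay wholly above the DMSO libraries for 3 members and wholly below them for 11, 38.6% of all genes being separated in this way, 20.7% above and 17.9% below. DESeq2 called 8 members lower and a correction for gene length called 15 lower. Leaving out DMSO replicate 3, or scaling by library size only, gave 2 higher members, and a stricter filter on low counts, which removes Cryab, gave 0.

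**Figure D1:**
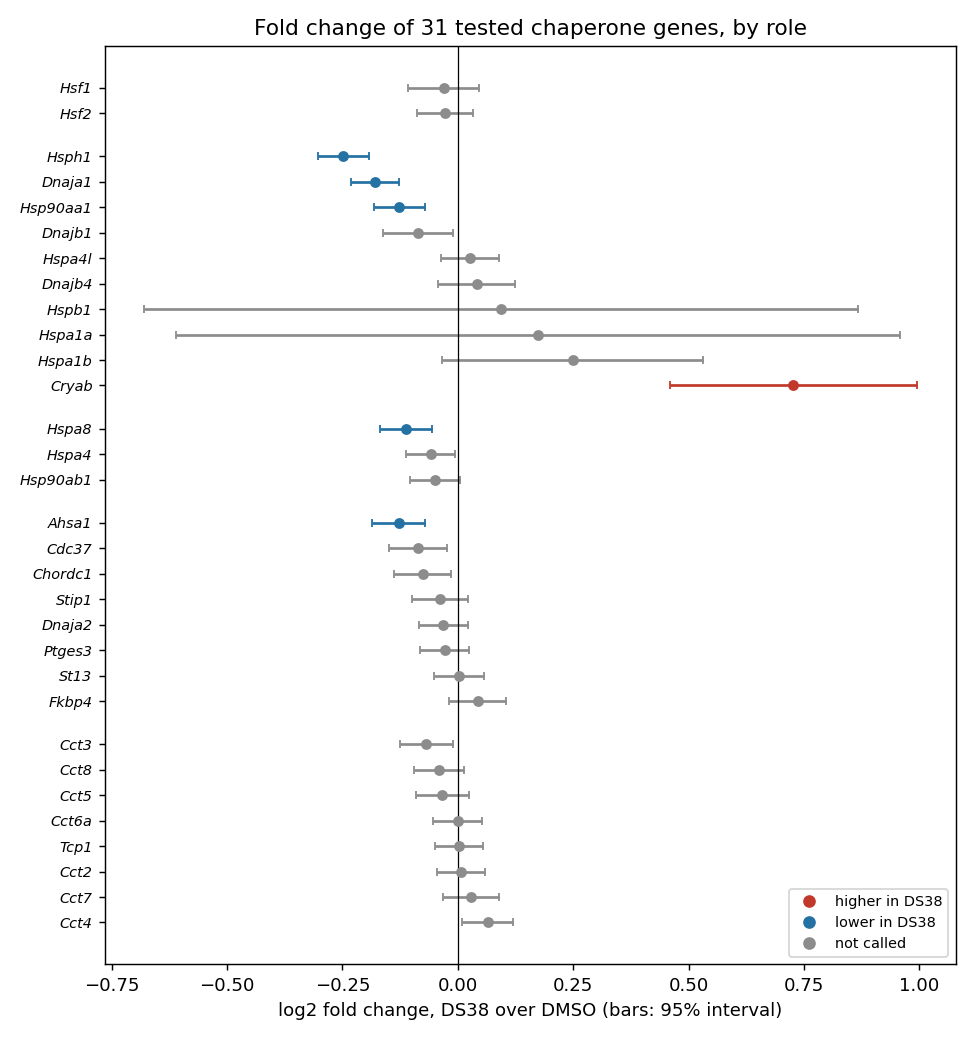
Log2 fold change (x axis, DS38 over DMSO) of the 31 tested chaperone genes with 95% intervals, grouped from top to bottom as heat shock factors, HSF1-type inducible genes, constitutive chaperones, co-chaperones and TCP1 ring. Cryab is the red point at 0.73, the 5 blue points lie between -0.25 and -0.11, and the ring genes lie between -0.07 and 0.06.

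Neither heat shock factor gene passed the test. Hsf1, the main stress-responsive factor, was at 45.7, 45.2 and 42.6 CPM in the DS38 libraries and 44.1, 46.5 and 45.7 CPM in the DMSO libraries. Hsf2, which can form mixed trimers with HSF1, was at 89.3, 86.9 and 87.7 CPM in DS38 and 90.8, 87.8 and 90.5 CPM in DMSO. The groups overlapped for both genes, and the fold changes, which did not pass, were 0.979 (95% interval 0.928 to 1.03) for Hsf1 and 0.981 (0.941 to 1.02) for Hsf2. Neither was called by DESeq2 or limma-voom, and neither had an unadjusted p under 0.05. Among related genes outside the 32, Hsbp1, which encodes an HSF1-binding protein, rose (148 ± 5.19 CPM in DS38 and 137 ± 2.52 CPM in DMSO; SD, n = 3; edgeR adjusted p = 0.008948).

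The strictly stress-induced members of the HSF1 group were at low levels in both groups. Hspa1a and Hspa1b, the inducible HSP70 genes, had 213, 172 and 237 counts together in the DS38 libraries and 121, 124 and 72 counts together in the DMSO libraries. After scaling this was 2.67, 2.81 and 2.78 CPM in DS38 and 2.48, 2.58 and 1.86 CPM in DMSO, so all 3 DS38 libraries lay above all 3 DMSO libraries. With the pair summed before the fit, the log2 fold change was 0.24 ± 0.14 (SE) and did not pass (edgeR adjusted p = 0.2076). DMSO replicate 3 was the lowest library, and without it, an alternative added after seeing the data, the log2 fold change was 0.12 ± 0.14 (SE, edgeR adjusted p = 0.5844). Without any other single library it was 0.23 to 0.33 and did not pass. Taken singly, Hspa1b had a fold change of 1.19 (95% interval 0.976 to 1.45) and Hspa1a of 1.13 (0.655 to 1.94). The log2 fold change of Hspa1b was 0.25, or 0.11 without DMSO replicate 3 and at most 0.33 over all alternatives. How reads matching both copies were counted is uncertain, which affects the level of the sum as well as of each copy. Bag3, a nucleotide exchange factor of HSP70 that HSF1 strongly induces, had 1 count over the DS38 libraries and 2 counts over the DMSO libraries. Both are under the limit of 3 counts that a count of 0 allows, and no fold change is given. Hspb1, encoding the small heat shock protein HSP27, was at 0.351, 0.554 and 0.247 CPM in DS38 and 0.184, 0.354 and 0.543 CPM in DMSO. At this depth its 95% interval ran from 0.624-fold to 1.82-fold, so changes within that range are not excluded.

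Near-identity of the HSP70 pair extends to the promoters, which are shown because they differ at few bases. Each sequence runs from 250 bases before to 50 bases after the gene's start, as RefSeq gives it on GRCm38.p6, an older build than the GRCm39 named by the submitters. The windows lie at chr17:34972107-34972406 for Hspa1a and chr17:34959189-34959488 for Hspa1b, both on the minus strand. Capitals mark the match to the inverted repeat GAANNTTC, the core of a heat shock element.
Hspa1a: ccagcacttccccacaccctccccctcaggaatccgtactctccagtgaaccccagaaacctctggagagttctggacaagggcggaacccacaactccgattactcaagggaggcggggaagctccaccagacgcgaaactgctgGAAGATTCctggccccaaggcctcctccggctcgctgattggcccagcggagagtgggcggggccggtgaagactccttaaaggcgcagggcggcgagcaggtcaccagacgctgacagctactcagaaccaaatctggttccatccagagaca
Hspa1b: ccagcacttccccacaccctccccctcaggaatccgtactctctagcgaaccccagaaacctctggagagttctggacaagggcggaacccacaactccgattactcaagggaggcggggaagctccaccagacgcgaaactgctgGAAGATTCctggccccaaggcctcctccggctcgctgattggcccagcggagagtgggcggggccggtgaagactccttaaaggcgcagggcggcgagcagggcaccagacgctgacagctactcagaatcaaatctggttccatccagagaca
The windows agreed at 296 of 300 bases. They differed by C44T, T47C, T249G and C276T, with the Hspa1a base first and positions counted from 1 at the window's 5′ end. The marked repeat, at bases 147 to 154, was the same in each.

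Cryab, encoding the small heat shock protein alpha-B-crystallin, was the only member of the 31 that rose in this fit. It was at 2.96, 3.21 and 3.59 CPM in the DS38 libraries and 1.72, 1.96 and 2.28 CPM in the DMSO libraries. Every DS38 library was above every DMSO library, and the log2 fold change was 0.73 ± 0.14 (SE; edgeR adjusted p = 0.0004521). Cryab was a gene of low level in both groups, at 2.20 ± 0.216 RPKM in DS38 and 1.34 ± 0.189 RPKM in DMSO (SD, n = 3). Its exons overlap those of Hspb2 on the opposite strand in the GENCODE M21 annotation; Hspb2 had 55 counts in all libraries together, against 1005 for Cryab. Hspb8, another small heat shock protein and the partner of BAG3 in selective autophagy, is not among the 32 genes and also rose, to 91.3 ± 2.52 CPM in DS38 against 67.0 ± 3.30 CPM in DMSO (log2 fold change 0.45 ± 0.036, SE; edgeR adjusted p = 1.622e-08). In the list of other heat shock factors and heat shock proteins, 2 of 9 tested genes rose, Hspb8 and Hsbp1, and 0 fell by edgeR, DESeq2, limma-voom or an unadjusted p under 0.05. The share called higher over all genes tested was 12.9%.

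The abundant members of the HSF1 group moved the other way. Hsph1, an HSP110-type nucleotide exchange factor, was at 567, 557 and 546 CPM in DS38 and 678, 647 and 658 CPM in DMSO, a fold change of 0.842 (95% interval 0.810 to 0.875; edgeR adjusted p = 1.573e-06). Dnaja1, a J-domain partner of HSP70, was at 371, 367 and 367 CPM in DS38 and 419.8, 416 and 415 CPM in DMSO (fold change 0.884, 0.852 to 0.916; edgeR adjusted p = 3.838e-05). Hsp90aa1, the stress-responsive HSP90 alpha, was at 2156, 2095 and 2116 CPM in DS38 and 2374, 2274 and 2301 CPM in DMSO (fold change 0.916, 0.882 to 0.951; edgeR adjusted p = 0.001838). In each of these 3 genes the DS38 libraries lay below the DMSO libraries without overlap, as in 17.9% of all genes tested. Among the 459 tested genes with at least the mean CPM of the least abundant ring subunit, a level chosen after seeing the data, 45.3% were separated in this direction and 37.9% were called lower, against 4 of the 17 chaperone genes at that level, these 3 and Hspa8. Dnaja1 shares exonic sequence with Smu1 on the opposite strand, and Smu1, at 175.6 CPM in DS38 and 168.0 CPM in DMSO, did not pass (log2 fold change 0.06 ± 0.030, SE; edgeR adjusted p = 0.1238).

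The remaining tested members of the group did not pass. Dnajb1, a J-domain partner of HSP70 that HSF1 induces, was at 47.5, 48.0 and 44.8 CPM in DS38 and 50.4, 48.3 and 50.4 CPM in DMSO. Its libraries did not overlap, yet the fold change of 0.942 (95% interval 0.894 to 0.992) had an edgeR adjusted p of 0.107, and it passed only with the length correction (adjusted p = 0.009038). Dnajb4, a related J-domain protein, had a fold change of 1.03 (0.971 to 1.09), and Hspa4l, an HSP110-family gene, of 1.02 (0.975 to 1.06). In all, 1 of 10 tested members of the HSF1 group rose and 3 fell, with a median log2 fold change of 0.03. Of all genes tested, 12.9% were called higher and 11.7% lower.

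**Figure D2:**
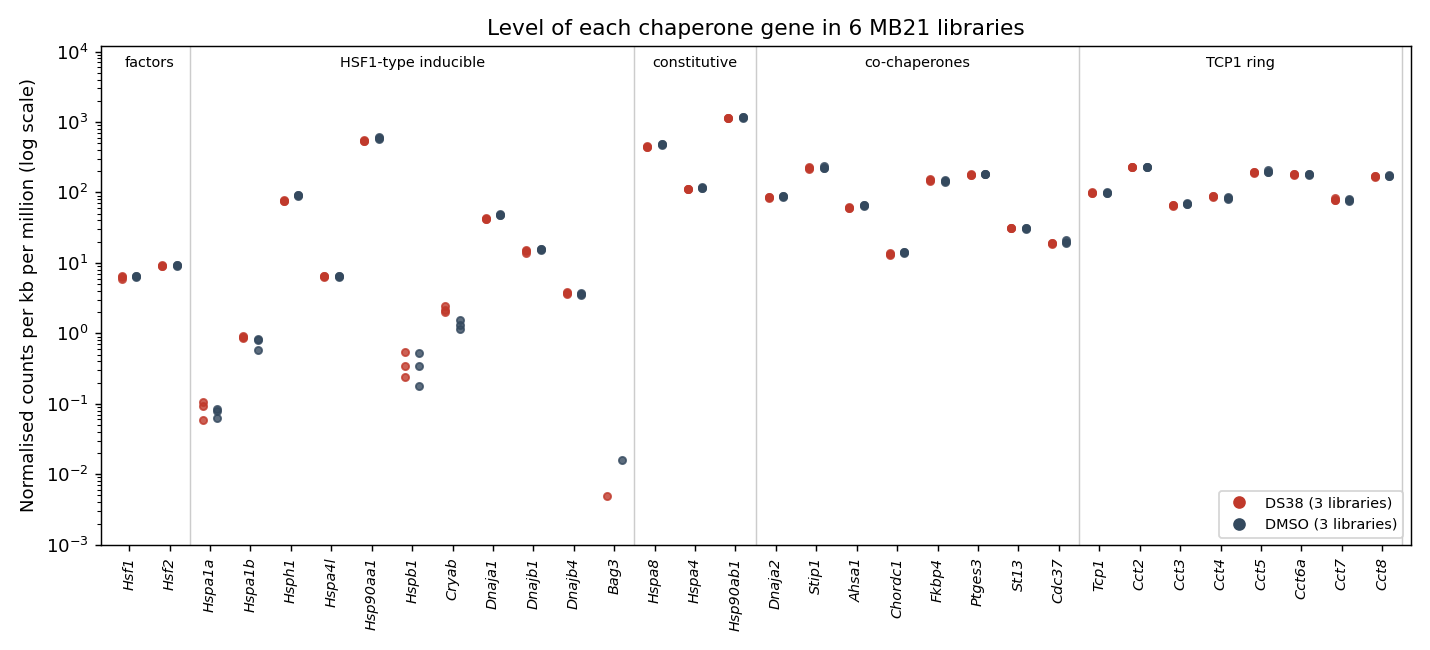
Level of each of the 32 chaperone genes in 3 DS38 libraries (red) and 3 DMSO libraries (blue-grey), in RPKM on a log axis. The inducible genes Hspa1a, Hspa1b, Hspb1 and Bag3 lie below 1, whereas Hsp90ab1, Hsp90aa1 and Hspa8 are the 3 highest; the Bag3 libraries at 0 are not drawn.

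Promoter windows were available for 25 of the 32 genes. The full heat shock element was searched as GAANNTTCNNGAA or TTCNNGAANNTTC, which are each other's reverse complement, and the shorter core as GAANNTTC or TTCNNGAA, each its own reverse complement and contained in the full element. The full element was found in 2 of the 25 genes, Hsph1 and Chordc1, and in 0.603% of all 32851 windows, or 0.662% of genes. The core was found in 13 of the 25 genes and in 15.1% of all windows, or 17.0% of genes. It was found in 7 of 9 genes of the HSF1 group, 3 of 7 co-chaperones and 3 of 7 ring subunits with a window. A match describes the letters in the window and does not show a bound site. The search allowed no mismatch in the fixed letters, so a gene without a match may still hold an imperfect element. The windows with the full element are printed because Hsph1 had the smallest adjusted p of the 31 genes and Chordc1 had the most copies. They lie at chr5:149636287-149636586 on the minus strand for Hsph1 and chr9:18292017-18292316 on the plus strand for Chordc1, on GRCm38.p6 from RefSeq, with the full element in capitals.
Hsph1: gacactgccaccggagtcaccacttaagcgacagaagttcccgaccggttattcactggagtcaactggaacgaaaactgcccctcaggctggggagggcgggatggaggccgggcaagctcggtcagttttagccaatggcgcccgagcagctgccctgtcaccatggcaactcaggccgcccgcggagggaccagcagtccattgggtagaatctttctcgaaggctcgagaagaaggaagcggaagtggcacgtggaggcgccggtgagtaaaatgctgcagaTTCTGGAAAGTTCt
Chordc1: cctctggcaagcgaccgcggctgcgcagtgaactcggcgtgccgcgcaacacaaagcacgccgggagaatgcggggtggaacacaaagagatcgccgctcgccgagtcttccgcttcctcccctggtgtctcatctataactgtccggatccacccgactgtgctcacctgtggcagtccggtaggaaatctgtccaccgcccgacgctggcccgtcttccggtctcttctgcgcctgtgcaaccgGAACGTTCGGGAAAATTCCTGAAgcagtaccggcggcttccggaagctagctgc
In Hsph1 the element occupies bases 287 to 299 of the window, downstream of the gene start at base 251. In Chordc1, 3 overlapping matches run from base 247 to base 269, across the gene start. Hsph1 was lower in DS38, and Chordc1, described with the co-chaperones, did not pass (fold change 0.949, 95% interval 0.909 to 0.990). Both fold changes were below 1, and a difference between these genes was not tested.

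The constitutive chaperones include the most abundant members per length, and 1 of the 3 fell while 2 did not pass. The share called lower over all genes tested was 11.7%. Hspa8, the constitutive HSP70 of the cytosol, was at 1974, 1883 and 1884 CPM in DS38 and 2065, 2039.5 and 2100.0 CPM in DMSO, without overlap. Its fold change was 0.925 (95% interval 0.890 to 0.962; edgeR adjusted p = 0.005695), and without DS38 replicate 2 it no longer passed (adjusted p = 0.05413). Hspa4, a further HSP110-type exchange factor, was at 627, 626 and 623 CPM in DS38 and 663, 642 and 648 CPM in DMSO, and its fold change of 0.960 (0.926 to 0.996) did not pass (edgeR adjusted p = 0.1215; 0.04384 with DESeq2 and 0.008549 with the length correction). Hsp90ab1, the constitutive HSP90 beta, was at 3432, 3399 and 3361 CPM in DS38 and 3553, 3417 and 3581 CPM in DMSO, and the groups overlapped (log2 fold change -0.05, edgeR adjusted p = 0.1982). With the length correction Hsp90ab1 passed as lower, at -0.09 (edgeR adjusted p = 0.003924).

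**Figure D3:**
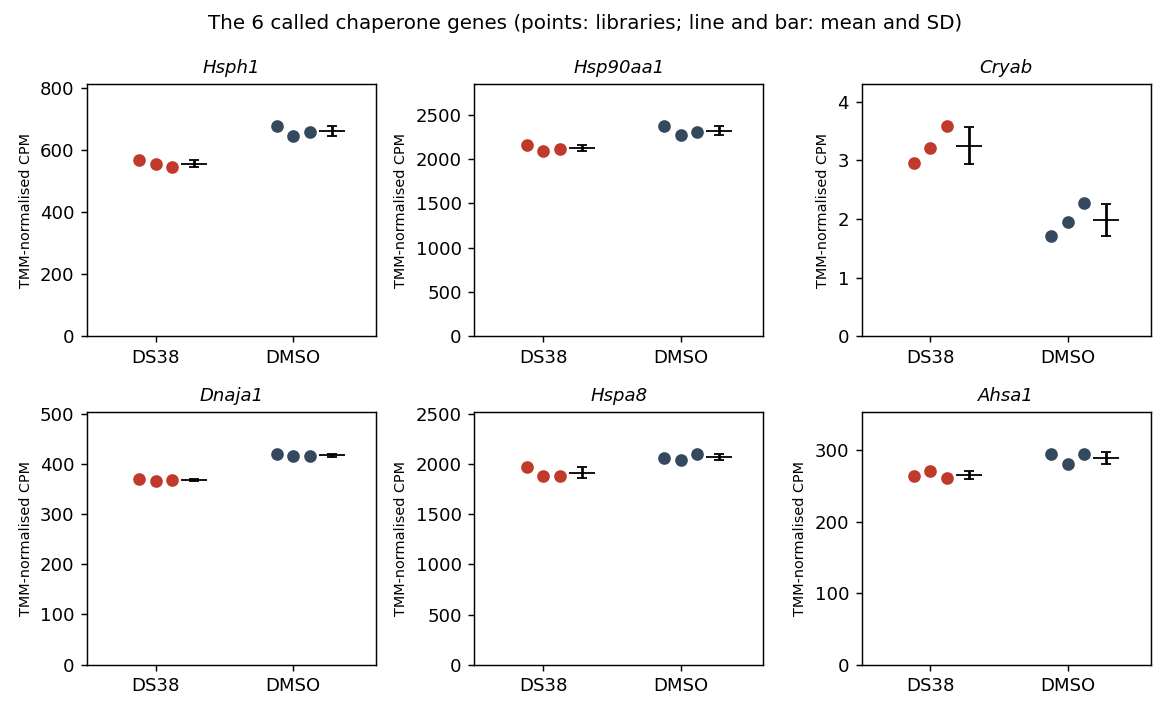
Normalised CPM (y axis, from 0) of the 6 called chaperone genes in each library, with the mean and SD of 3 libraries beside the points. Cryab is higher in DS38 and the other 5 genes are lower, with no overlap between DS38 and DMSO libraries in any panel.

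Ratios within a library do not depend on how libraries were scaled. Per length, Hsp90aa1 was at 0.479, 0.470 and 0.480 of the Hsp90ab1 level in DS38 and at 0.510, 0.508 and 0.490 of it in DMSO. The ratio averaged 0.477 ± 0.00553 in DS38 and 0.503 ± 0.0107 in DMSO (SD, n = 3), with no overlap (exact permutation test over libraries, two-sided, p = 0.1, the smallest that 3 against 3 libraries can give). The inducible pair Hspa1a and Hspa1b made up 0.206%, 0.227% and 0.225% of the summed cytosolic HSP70 level with Hspa8 in DS38, and 0.183%, 0.193% and 0.135% in DMSO. These shares also did not overlap (exact permutation p = 0.1, two-sided), and the difference in means was 0.0491 percentage points, or 0.0315 without DMSO replicate 3. Hspa8 per length was on average 456-fold above the inducible pair in DS38 and 601-fold above it in DMSO. The DMSO mean was raised by DMSO replicate 3, the library with the lowest share of the pair, 0.135%. Shares and folds of the pair rest on the deposited gene lengths, 4301 bases for Hspa8, 2967 for Hspa1a and 2803 for Hspa1b. They also rest on how reads matching both copies were counted, which was not given.

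**Figure D4:**
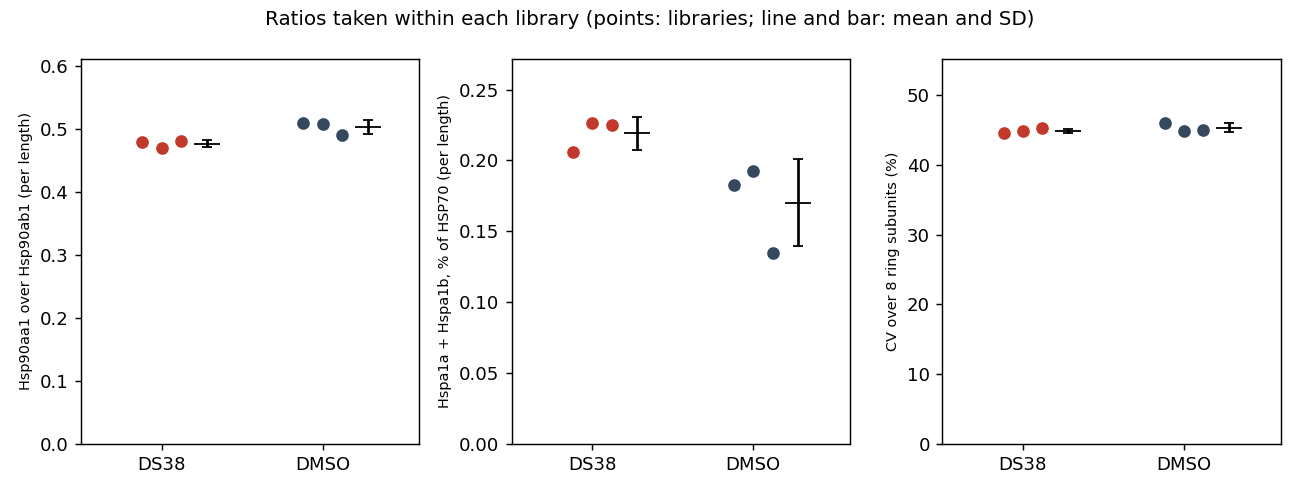
Values taken within each library, with mean and SD of 3 libraries: Hsp90aa1 over Hsp90ab1, the share of Hspa1a and Hspa1b in cytosolic HSP70, and the coefficient of variation over the ring subunits. The DS38 points lie below the DMSO points in the first panel, above them in the second, and overlap them in the third.

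Of the 8 co-chaperones 1 fell and 0 rose in edgeR's test, beside 11.7% lower and 12.9% higher over all genes tested. With DESeq2, limma-voom or an unadjusted p under 0.05, 0 rose. Ahsa1, which stimulates the ATPase of HSP90, was at 264, 271 and 261 CPM in DS38 and 295, 280.3 and 295 CPM in DMSO, without overlap (fold change 0.915, 95% interval 0.879 to 0.952; edgeR adjusted p = 0.002727). Cdc37, which delivers kinases to HSP90, was at 156, 157 and 149.9 CPM in DS38 and 162, 158 and 171 CPM in DMSO. It lay just outside the threshold, with a fold change of 0.942 (0.901 to 0.984; edgeR adjusted p = 0.05467), and passed with DESeq2, with RLE scaling, with the stricter filter and without DMSO replicate 2 (adjusted p 0.03293 to 0.03839). Chordc1, an HSP90-binding protein also known as CHP-1, was at 96.6, 98.9 and 102 CPM in DS38 and 106, 105 and 102 CPM in DMSO, where the highest DS38 and the lowest DMSO library met (edgeR adjusted p = 0.08631, but 0.02581 without DMSO replicate 3 and 0.04317 with the length correction).

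The other 5 co-chaperones did not pass the test. Stip1, the adaptor between HSP70 and HSP90, had a fold change of 0.974 (95% interval 0.934 to 1.02), and St13, an HSP70-interacting protein, of 1.00 (0.964 to 1.04). Ptges3, the HSP90 co-chaperone p23, was at 396 ± 5.45 CPM in DS38 and 404 ± 2.09 CPM in DMSO (SD, n = 3), and the J-domain protein Dnaja2 was at 254 ± 3.38 CPM in DS38 and 260.0 ± 2.40 CPM in DMSO. Fkbp4, an immunophilin of steroid receptor complexes, was at 419 ± 11.9 CPM in DS38 and 407 ± 15 CPM in DMSO. None of these passed, and their intervals in this fit exclude changes of 10% or more in either direction. With the length correction Dnaja2, Stip1 and Ptges3 passed as lower (edgeR adjusted p = 0.01982, 0.03338 and 0.04016). Levels per length of the 8 co-chaperones ranged from 13.2 RPKM for Chordc1 to 222 RPKM for Stip1 in DS38, and from 14 to 228 RPKM for the same genes in DMSO.

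Related genes outside the 32 were examined beside them. Over all genes tested, 12.9% were called higher and 11.7% lower, and a difference of these lists from all genes was not tested. Of 22 further co-chaperones of HSP70 and HSP90, 1 rose and 2 fell. Ttc4, which DESeq2 did not call, rose to 53.3 ± 0.756 CPM in DS38 against 48.9 ± 3.35 CPM in DMSO (SD, n = 3; edgeR adjusted p = 0.03086), while Ppid, cyclophilin 40, and Nudc fell, with fold changes of 0.917 and 0.918 (edgeR adjusted p = 0.002204 and 0.006764). Of 14 further J-domain proteins 6 fell and 0 rose in edgeR's test; 0 rose with DESeq2 or limma-voom and 1 had an unadjusted p under 0.05 in that direction. Dnajc9, a histone chaperone of this family, was at 142 ± 1.93 CPM in DS38 and 158 ± 3.55 CPM in DMSO (edgeR adjusted p = 0.0005553), and Dnajb5 and Dnajc13 had fold changes of 0.908 and 0.937. Among 8 known HSF1 targets of other functions or compartments, 2 rose and 3 fell. Serpinh1, the collagen chaperone of the endoplasmic reticulum, rose 1.15-fold and Rgs2 1.14-fold. The mitochondrial chaperonin pair Hspd1 and Hspe1 each fell to 0.932 of the DMSO level. Mrpl18, a mitochondrial ribosomal protein gene, fell to 0.921, with overlapping groups (edgeR adjusted p = 0.04805). Its exons overlap those of Tcp1 on the opposite strand. Mrpl18 was at 44.6 CPM in DS38 and 48.4 CPM in DMSO, and Tcp1 at 501 CPM in DS38 and 500 CPM in DMSO.

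No subunit gene of the TCP1 ring passed the test. Of 8 genes 0 rose and 0 fell in edgeR's test, and 2, Cct4 and Cct3, had an unadjusted p under 0.05; DESeq2 called 1 and limma-voom 0. Their log2 fold changes ran from -0.07 to 0.06 with a median of 0.001. The lowest and highest bounds of their 95% intervals were 0.917-fold and 1.09-fold. Summed over the ring, levels were 4154, 4068 and 4090.3 CPM in DS38 and 4056, 4098 and 4212 CPM in DMSO, so the DS38 libraries lay inside the DMSO range. Of the 459 tested genes at or above the level of the least abundant ring subunit, 52.3% were called in either direction, 14.4% higher and 37.9% lower.

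Each subunit occupies its own place in the ring, and their RNA levels per length were unequal. Per length, Cct2 was highest at 231 ± 1.69 RPKM in DS38 and 229 ± 3.07 RPKM in DMSO, followed by Cct5 at 193 ± 1.70 RPKM in DS38 and 197 ± 6.65 RPKM in DMSO (SD, n = 3). Cct6a was at 181 ± 2.12 RPKM in DS38 and 181 ± 3.12 RPKM in DMSO, and Cct8 at 169 ± 2.02 RPKM in DS38 and 174 ± 3.36 RPKM in DMSO. A gap separated these from Tcp1, the subunit that gave the ring its name, at 99.6 ± 0.956 RPKM in DS38 and 99.4 ± 1.30 RPKM in DMSO. Cct4 (87.6 ± 1.45 RPKM in DS38 and 83.7 ± 1.82 RPKM in DMSO), Cct7 (79.9 ± 2.10 RPKM in DS38 and 78.3 ± 2.95 RPKM in DMSO) and Cct3 (65.7 ± 0.688 RPKM in DS38 and 68.9 ± 2.31 RPKM in DMSO) completed the order, which was the same in each of the 6 libraries. The highest subunit was 3.51-fold above the lowest in DS38 and 3.33-fold above it in DMSO. Neighbours in this order did not overlap within a group, except Cct6a and Cct8 in DMSO, whose lowest and highest libraries were at 177.2 and 177.4 RPKM. The ratios, the order and the gap rest on the gene lengths as deposited, from 2557 bases for Cct2 to 6778 bases for Cct7. Cct2, Cct5, Cct8 and Cct6a have the shortest lengths of the ring genes. Without division by length, DMSO means ran from 352 CPM for Cct4 to 632 CPM for Cct6a. The gap was then absent, with Cct8 at 536 CPM and Cct7 at 531 CPM in DMSO.

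**Figure D5:**
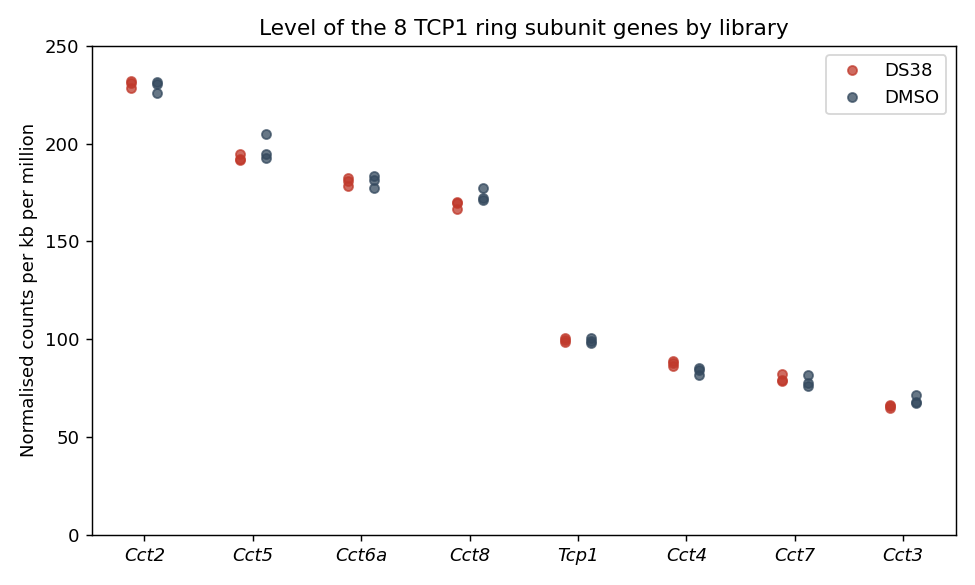
Level of the 8 TCP1 ring subunit genes (RPKM, y axis from 0) in 3 DS38 libraries (red, left) and 3 DMSO libraries (blue-grey, right), ordered by the DMSO mean. Cct2, Cct5, Cct6a and Cct8 lie above 160 and the other 4 genes at about 100 or below, with little difference between DS38 and DMSO.

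The spread over the ring, taken on levels per length, was 44.6%, 44.9% and 45.3% in the DS38 libraries. It was 46.1%, 44.9% and 45.0% in the DMSO libraries, as a coefficient of variation. The groups overlapped, and the means of 44.9% in DS38 and 45.3% in DMSO did not differ beyond the spread between libraries (exact permutation test, two-sided, p = 0.4). Cct4 and Cct3 stood at the ends of the range of fold changes. Cct4 was at 374, 362 and 368 CPM in DS38 and 343, 354 and 358 CPM in DMSO, without overlap (fold change 1.05, 95% interval 1.01 to 1.09; edgeR adjusted p = 0.1002). Cct3 was at 421, 421 and 413 CPM in DS38 and 431, 430.0 and 456 CPM in DMSO, also without overlap (fold change 0.954, 0.917 to 0.992; edgeR adjusted p = 0.09288). Scaling by library size only made Cct4 pass as higher (adjusted p = 0.01072), as did leaving out DMSO replicate 3 (0.04227), and Cct3 passed with DESeq2 (0.0461). With the length correction Cct3, Cct5 and Cct8 passed as lower. DMSO replicate 3 held the highest DMSO value for 6 of the 8 ring genes, and the SD of each of the 8 was larger in DMSO than in DS38. Of the other subunits, Cct8, at 525, 514 and 524 CPM in DS38 and 529, 532 and 548 CPM in DMSO, was separated between groups without passing (edgeR adjusted p = 0.2953). Tcp1 was at 506, 497 and 499.6 CPM in DS38 and 494, 507 and 498 CPM in DMSO. For Tcp1, Cct2, Cct5, Cct6a and Cct7 the groups overlapped, with fold changes of 0.977 to 1.02. Exons of Tcp1, Cct6a, Cct7 and Cct8 overlap genes on the opposite strand, the most abundant being Usp16 beside Cct8, at 68.3 CPM in DS38 and 69.3 CPM in DMSO. Psph, beside Cct6a, was at 45.1 CPM in DS38 and 39.8 CPM in DMSO and rose (edgeR adjusted p = 0.001512), while Cct6a had a fold change of 1.000.

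Genes for cofactors and clients of the ring were examined outside the 32. Of 9 tested genes for prefoldin, which carries nascent actin and tubulin to the ring, and for ring cofactors, 0 were called in edgeR's test, by DESeq2 or by limma-voom, and 2 had an unadjusted p under 0.05. Txndc9 (fold change 0.944; edgeR adjusted p = 0.05894) and Pdcl (1.06; 0.06833), both phosducin-like ring cofactors, had the smallest p. Of 5 tubulin cofactors 0 were called by any of these tools and 2 had an unadjusted p under 0.05, with Tbcd at 1.05-fold (edgeR adjusted p = 0.09644) and Tbce at 1.11-fold (0.1077). Of 13 tubulin and actin genes, the classic clients of the ring, 3 rose and 5 fell. A difference between the cofactor and client lists was not tested, and the called share was 24.5% of all genes tested and 52.3% of the 459 abundant genes. The actins Actg1 and Actb rose 1.19-fold and 1.06-fold, with Actg1 at 891 ± 21.8 CPM in DS38 and 746 ± 33.5 CPM in DMSO (SD, n = 3; edgeR adjusted p = 4.605e-06), and the alpha-tubulin gene Tuba4a rose 1.19-fold. The tubulin genes with the smallest p among those that fell were Tuba1a (0.866-fold), Tubb3, a marker of neuronal differentiation (0.831-fold), and Tubb5 (0.901-fold; 1189 ± 22.8 CPM in DS38 and 1319.6 ± 28.4 CPM in DMSO). Genes of these families are similar in sequence, so how their reads were assigned is uncertain.

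Together the 32 genes averaged 15758 CPM in DS38 and 16477 CPM in DMSO after TMM scaling. Summed levels were 15971, 15669 and 15632 CPM in the DS38 libraries and 16541, 16200.2 and 16689 CPM in the DMSO libraries, with no overlap. Scaled by library size only, which was added after seeing the data, they were 16074, 15898 and 15844 CPM in DS38 and 16157, 16039.7 and 16620 CPM in DMSO, and the groups overlapped. Hsp90ab1, Hsp90aa1 and Hspa8 made up 47.2% of that sum in DS38 and 48.0% in DMSO. By role, the HSF1 group stood at 90.3% of its DMSO sum, the constitutive chaperones at 95.2%, the co-chaperones at 97.8%, the heat shock factors at 98.0% and the ring at 99.6%. With library size only the sums stood at 92.5%, 97.5%, 100.2%, 100.4% and 102% in the same order, so the direction for the co-chaperones, the heat shock factors and the ring turned with the scaling; the HSF1 group was the one of these 5 whose libraries still did not overlap. The sum of the HSF1 group is mostly Hsp90aa1, Hsph1 and Dnaja1, the members that fell.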

How the data were processed

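RNA was profiled in 3 DS38 and 3 DMSO libraries of MB21 cells, from column-purified RNA and an mRNA library kit, per the labels' protocols. The authors deposited whole-number counts of reads for every gene, beside its length. The submitters' processing notes name GRCm39 and GRCh38.p13 as builds, and as tools edgeR, R 4.1.0, Subread 2.0.3, featureCounts and STAR 2.7.9a, without roles. Neither the strand setting nor the treatment of multiply matching reads was given in the sources used here. Symbols came from GENCODE M21 (GRCm38); genes without one held 0.345% of counts. The labels do not say whether replicates were separate cultures, and p-values rest on the variation among these 6 libraries alone, which may be technical.

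Genes were kept by filterByExpr (minimum count 10, minimum total 15), leaving 17679, scaled by TMM and tested with edgeR 4.0.16 (R 4.3.3), two-sided quasi-likelihood, group as the sole term, Benjamini-Hochberg adjustment over all genes tested, threshold 0.05. The SE is the log2 fold change divided by the root of the F statistic, and 95% intervals are normal intervals from it. Ratios were tested by exact permutation (scipy 1.17.1). Limits on counts of 0 (3 counts) and intervals cover the spread and counting error only. Replicate pairs of a group differed by at least 2.94 times the sampling noise (chi-square over its degrees of freedom), so none was merged. This value was 2.94 to 3.63 for the DS38 pairs and 8.31 to 9.37 for the DMSO pairs, so the DMSO libraries varied more. The fit used the same dispersion for both groups. On data simulated for this comparison with 17393 genes, 29 of 49 genes changed 1.2-fold and 9 of 50 changed 1.1-fold were called, with 12 false calls. The simulation changed few genes, drawn at all levels, whereas 24.5% of genes were called in the data. Its shares therefore do not give the sensitivity for the members, most of which are abundant. The members, lists and tests were chosen with earlier results of these data known. Named genes are all 32 members and, of each other list, the called genes that led each direction by adjusted p, up to 3 (where none was called, the 2 genes leading by p). Alternatives were DESeq2 1.42.0, limma-voom (limma 3.58.1), RLE scaling, library size alone, no filter, a filter at 5 CPM in 3 libraries (the stricter one), the replicate block, thinning to 38840296 counts, a length correction, leaving out each library, and summing Hspa1a with Hspa1b. Figures used matplotlib 3.10.9 (Python 3.11.15).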

Additional observations from a re-analysis of the deposited data

How the results depend on the processing

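The direction of the 6 called genes held in every alternative in which they were tested, and all but Hspa8 stayed past the threshold; Cryab was not tested under the stricter filter. Over 490 pairs of a member and an alternative, 470 kept their side of the threshold, 19 gained a call, 10 of them with the length correction, and 1 lost it, Hspa8 without DS38 replicate 2. The number of members that fell was 8 with DESeq2 and 15 with the length correction; the number that rose was 2 with library size alone and 0 with the stricter filter. Leaving out a library gave 1 to 2 members higher and 4 to 6 lower. The length correction removes a trend of each library's log ratio on gene length, and its median over the members was -0.07, against -0.005 over all genes; the cause was not tested. With library size alone 68.1% of all calls were higher, against 52.4% with TMM, and the medians were 0.005 for the members and 0.04 for all genes. The replicate numbers pair no samples: deviations of same-numbered libraries correlated at 0.035, -0.011 and -0.027. With the replicate block 1 member was higher and 5 were lower, and all genes gave 2108 higher and 1902 lower. The ratios within a library kept their sign in every alternative: the HSP90 difference (DS38 minus DMSO) ran from -0.0321 to -0.0224, the HSP70 share from 0.0315 to 0.0604 percentage points and the ring's spread from -0.623 to -0.0390 percentage points when single libraries were left out. Genes under about 1 CPM (Hspa1a, Hspb1, Bag3) are limited by depth.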
